A study of Rattus norvegicus with 13 samples.

Results

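Cytochrome P450 genes outside the Cyp2c group were followed in laser-microdissected rat liver of the resistant-hepatocyte (R-H) model. All probes whose gene symbol begins with Cyp and a number were taken, leaving out the Cyp2c symbols (8 probes) and Cyp51 (1 probe). This gave 60 probes of 58 genes among 22523 probes on the array, with 2 probes each for Cyp3a23-3a1 and Cyp4a1. The arrays fell into oval cells (n = 6), preneoplastic foci (n = 5) and control (n = 2), 1 Illumina array per sample. In the model, male Fischer rats receive diethylnitrosamine, are then fed 2-acetylaminofluorene (2-AAF) and undergo partial hepatectomy, and oval cells and foci were dissected 1 week after the surgery. The ages of the rats are not given in the sources used here. Oval cells, small progenitor cells that resemble bile duct cells, were picked by shape and by stains for GGT, GSTP and CK-19, and foci are early clusters of altered hepatocytes. Control is labelled as hepatocytes of liver, and the study describes it in one place as random areas of normal liver and in another as random areas of rats on the R-H protocol. Against control, treatment and cell type therefore cannot be told apart.

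P450 enzymes are heme proteins that insert oxygen into drugs, carcinogens, fatty acids, bile acids and steroids, using electrons passed on by cytochrome P450 oxidoreductase. Families 1, 2 and 3 mostly handle foreign compounds, and in liver many of their members are most abundant in the hepatocytes around the central vein. Family 4 hydroxylates fatty acids and eicosanoids, and families 7, 8 and 27 turn cholesterol into bile acids. 2-AAF is itself activated by P450 enzymes of family 1.

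Levels are the deposited intensities of single probes, normalized by quantiles and given with no background subtraction. An intensity of 300, the limit in the study's own filter, was taken as the level below which a probe carries little signal. On each array 26.8% of all probes lay above it. Precision is limited by how many arrays there are. Of the 60 P450 probes, 35 (33 genes) had a median above 300 in at least 1 group, and 25 did not. By family these were 3 of 3 probes of family 1, 13 of 20 of family 2, 5 of 5 of family 3, 8 of 15 of family 4, 4 of 4 sterol probes (families 7, 8 and 27) and 2 of 13 of the remaining families. By group median, 25 probes exceeded 300 in oval cells, 33 in foci and 31 in control. Just under the limit lay Cyp4a8 with a highest group median of 258, Cyp26b1 with 273 and Cyp4f5 with 281, and just above it Cyp20a1 with 339, Cyp1a1 with 372 and Cyp4a1 with 423.

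The members below the limit in all groups were mostly enzymes of other tissues. They included the steroid hormone enzymes Cyp11a1, Cyp11b1, Cyp11b2, Cyp11b3, Cyp19a1 and Cyp21a1. The vitamin D and retinoic acid hydroxylases Cyp24a1, Cyp26a1 and Cyp26b1 were among them, as were the sterol hydroxylases Cyp39a1 and Cyp46a1. In family 2 they were Cyp2a3, Cyp2b12, Cyp2b21, Cyp2g1, Cyp2j10, Cyp2s1 and Cyp2u1, and in family 4 Cyp4a8, Cyp4f17, Cyp4f18, Cyp4f37, Cyp4f40, Cyp4f5 and Cyp4v3.

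Tests were made with limma over all 6997 probes above the limit in at least 1 group, and a probe was called where its adjusted p was below 0.05 and it differed by 2-fold or more. In oval cells against control, 19 of the 35 P450 probes were called lower and 3 higher, against 12.0% of all tested probes called lower and 13.5% called higher. In foci against control, 13 of 35 were called lower and 3 higher, against 7.80% and 10.3% of all probes. In oval cells against foci, 8 were called lower and 2 higher, against 6.73% and 7.96% of all probes. The median log2 difference of the 35 probes was -1.09 in oval cells against control, -0.70 in foci against control and -0.42 in oval cells against foci, where the medians over all tested probes were 0.01, 0.01 and -0.03. A probe that passed the limit through 1 group alone tends to differ, so these counts and medians describe the 35 probes only. Cyp1b1 passed through oval cells alone, Cyp1a1 and Cyp20a1 through foci alone and Cyp2d4 through control alone. Their p-values are no separate support for a high level in that group. With no limit on dim probes, 19, 14 and 8 of all 60 probes were called lower in the 3 comparisons, against 3.76%, 2.46% and 2.11% of 22523 probes. The comparisons with control share the same 2 control arrays.

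Several facts of the arrays bear on every comparison. Slide 1 carried the oval cells and control and slide 2 the foci, so wherever foci are compared the slide cannot be told apart from the group. There are more oval cell arrays than rats named by the study, so some arrays come from the same rat and their p-values are too small, and pools of foci may share animals as well. Nothing in the labels says that the arrays of a group come from separate animals, so the p-values measure only the spread between these arrays. In pooled tissue, fewer cells of a type and less RNA per cell cannot be told apart. Probes of closely related P450 genes may share signal, and this was not tested.

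**Figure D1:**
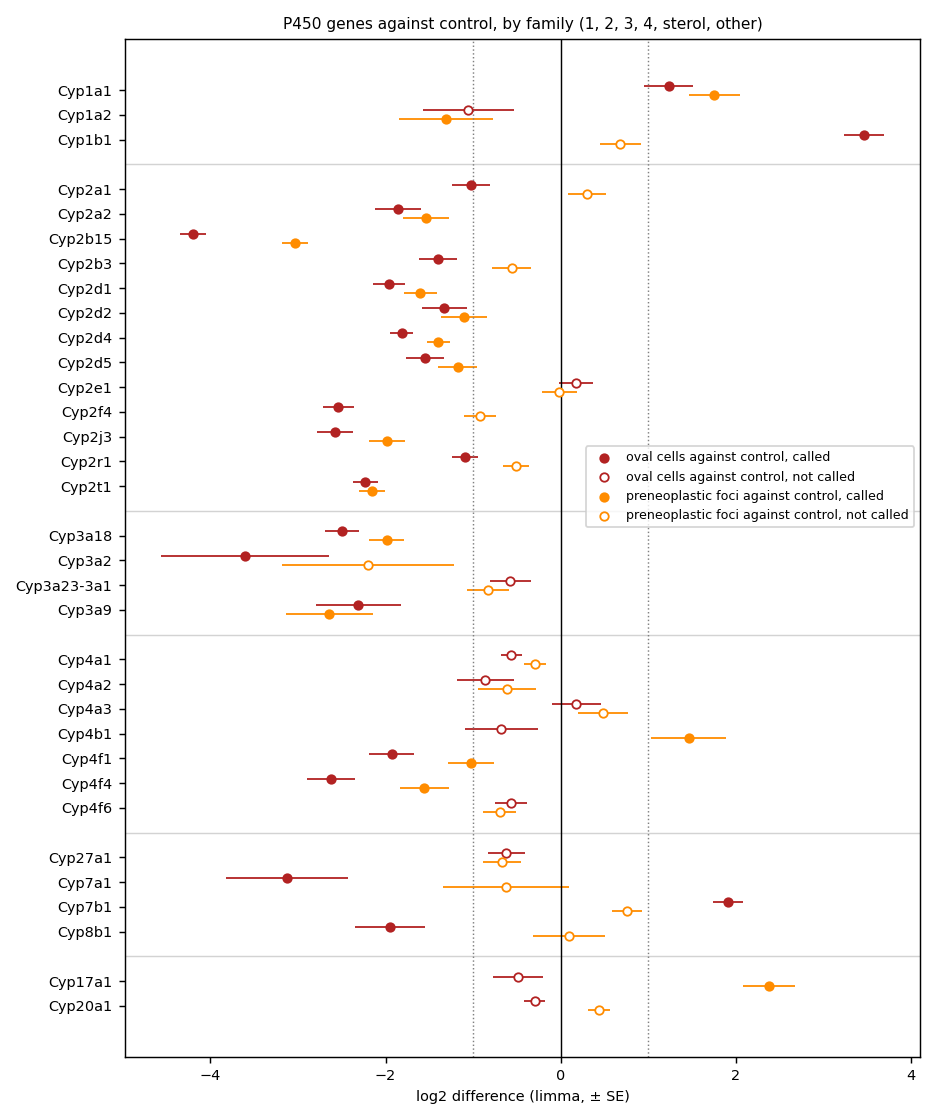
Log2 differences (limma, ± SE) of the 33 P450 genes, each by its brightest probe, in oval cells against control and in preneoplastic foci against control, ordered by family. Filled points were called, and the dotted lines mark 2-fold differences. In family 2, 12 of 13 genes were called lower in oval cells and 8 of 13 in foci.

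Family 1, which holds the enzymes that activate polycyclic hydrocarbons and arylamines, had members that moved in opposite directions. Cyp1b1, which is found mostly outside hepatocytes, had a lowest, median and highest intensity of 693, 1125 and 1385 in oval cells, against 207, 216, 221, 187 and 226 in foci and 156 and 160 in control. All 6 oval cell arrays lay above 300 and all other arrays below it, so Cyp1b1 was at least 3.46-fold higher in oval cells than in control (adjusted p = 8.87e-09) and at least 3.46-fold higher than in foci (adjusted p = 4.45e-09). Cyp1b1 entered the test through its oval cell values alone, so these p-values follow a selection on that group. Both groups compared lie under 300 in foci against control, and no fold is given there.

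Cyp1a1, the classic inducible target of the aryl hydrocarbon receptor, had 188, 276 and 329 (lowest, median, highest) in oval cells and 246, 479, 408, 315 and 372 in foci, against 153 and 155 in control. It was at least 1.18-fold higher in foci than in control (adjusted p = 0.000101), a bound set by control arrays under 300. Cyp1a1 entered the test through its foci values alone, so this p-value follows a selection on foci. In oval cells Cyp1a1 was called higher than in control as well (adjusted p = 0.00122), but most of the oval cell values also lie below 300, so no fold is given. That call was lost with no background correction. Cyp1a2, the main hepatic enzyme that N-hydroxylates 2-AAF, had 851, 3086 and 5275 in oval cells and 1504, 2321, 2807, 3533 and 2502 in foci, against 6345 and 5545 in control. Every oval cell and foci array was below both control arrays. The fall passed the test in foci (log2 difference -1.31 ± 0.53, SE, adjusted p = 0.0434) and not in oval cells (-1.06 ± 0.52, SE, adjusted p = 0.0828). The call in foci was lost on leaving out any 1 of 9 arrays (log2 difference -1.21 without control replicate 1). It was also lost with centring on hepatocyte markers (-0.92, adjusted p = 0.0746). In oval cells the call was made without oval cells replicate 1 (adjusted p = 0.0458) or replicate 3 (adjusted p = 0.0416). It was also made there with centring on ribosomal protein probes (adjusted p = 0.00313).

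The upstream sequences of these genes are shown because Cyp1b1 was called higher in oval cells and Cyp1a2 was called lower in foci. They are the 250 bases before the RefSeq start of transcription in the build GRCr8, written 5′ to 3′ along the gene. Capitals mark GCGTG on either strand, the core of the site bound by the aryl hydrocarbon receptor, and in Cyp1a2 also TATAAA. The Cyp1b1 stretch is chr6:21094315-21094564, plus strand, and that of Cyp1a2 is chr8:66978150-66978399, minus strand.
Cyp1b1: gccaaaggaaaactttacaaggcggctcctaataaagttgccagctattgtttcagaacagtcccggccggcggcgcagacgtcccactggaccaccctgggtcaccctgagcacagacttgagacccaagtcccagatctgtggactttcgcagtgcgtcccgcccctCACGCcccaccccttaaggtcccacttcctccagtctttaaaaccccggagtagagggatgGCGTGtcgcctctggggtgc
Cyp1a2: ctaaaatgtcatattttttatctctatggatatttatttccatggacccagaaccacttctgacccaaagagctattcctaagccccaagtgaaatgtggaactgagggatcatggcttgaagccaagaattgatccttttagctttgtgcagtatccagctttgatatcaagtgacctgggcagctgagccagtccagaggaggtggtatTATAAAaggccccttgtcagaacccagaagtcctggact
GCGTG stands in the Cyp1b1 stretch 81 bases before the start on the opposite strand and 20 bases before it on the same strand, and these letters are not in the Cyp1a2 stretch. The core is common. It is in 27.2% of the 27457 promoters of the table and in 6 of the 26 promoters found for the 33 P450 genes. TATAAA begins 39 bases before the start of Cyp1a2, and 13.1% of all promoters hold it on either strand.

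Family 2 held 12 of the 19 probes called lower in oval cells. It had 13 tested genes, and 8 of them were called lower in foci. Cyp2b15, of the phenobarbital-inducible subfamily, had 215, 222 and 261 (lowest, median, highest) in oval cells and 418, 380, 466, 478 and 392 in foci, against 3547 and 2479 in control. The 3 groups did not overlap. Every oval cell array was under 300, so Cyp2b15 was at least 9.88-fold lower in oval cells than in control (adjusted p = 1.9e-11), and it was 8.18-fold lower in foci (log2 difference -3.03 ± 0.15, SE, adjusted p = 1.1e-09). It was also at least 1.42-fold lower in oval cells than in foci (adjusted p = 2.67e-07), a difference that was under 2-fold with no background correction. The other measured member of the subfamily, Cyp2b3, had 3674, 4991 and 7940 in oval cells and 7940, 9169, 9971, 9384 and 10923 in foci, against 13176 and 14607 in control. It was called lower in oval cells (2.64-fold, adjusted p = 4.47e-05), and in foci its 1.48-fold difference did not reach the limit of 2-fold.

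The 4 Cyp2d genes, relatives of the human debrisoquine hydroxylase, were all called lower in both lesions. With centring on hepatocyte markers, Cyp2d2 (log2 difference -0.72) and Cyp2d5 (-0.78) in foci stayed under 2-fold against control. Cyp2d2 had 6173, 10320 and 14654 in oval cells and 10238, 10734, 12331, 15014 and 13425 in foci, against 26628 and 25856 in control. No array of either lesion reached a control array. Cyp2d2 was 2.51-fold lower in oval cells (adjusted p = 0.00027) and 2.15-fold lower in foci (adjusted p = 0.00181). Cyp2d1 averaged 417 ± 82.7 (SD, n = 6) in oval cells and 506 ± 33.0 (SD, n = 5) in foci, against 1389 ± 62.1 (SD, n = 2) in control, and Cyp2d5 averaged 1339 ± 338 and 1681 ± 222, against 3675 ± 73.0. Cyp2d4 was under 300 on all oval cell and foci arrays and at 450 and 582 in control, so it was at least 1.71-fold lower in each. None of the 4 was called between oval cells and foci by limma, with log2 differences of -0.36 for Cyp2d1 (adjusted p = 0.0276), -0.38 for Cyp2d5 (adjusted p = 0.0485) and -0.22 for Cyp2d2 (adjusted p = 0.302). Cyp2d4 lay under 300 in both lesions, and no difference between them is given.

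Of the Cyp2a genes, Cyp2a2, a testosterone hydroxylase of male rat liver, fell in both lesions. It had 3851, 6022 and 8615 in oval cells and 6165, 6077, 8011, 8615 and 8525 in foci, against 21945 and 20774 in control (3.62-fold lower in oval cells, adjusted p = 1.53e-05, and 2.91-fold lower in foci, adjusted p = 0.000154). Cyp2a1, a steroid hydroxylase, had 358, 421 and 664 in oval cells and 900, 910, 1125, 1132 and 1135 in foci, against 906 and 803 in control. The oval cell arrays were all below the other groups, and foci and control overlapped. The fall in oval cells was 2.51-fold against foci (adjusted p = 3.13e-06) and 2.04-fold against control (adjusted p = 0.000575), and the second of these slipped under 2-fold on leaving out control replicate 1 or oval cells replicate 4, 5 or 6 (log2 differences of -0.93, -0.94, -0.98 and -0.99). It did so too with no background correction (-0.90), with array weights (-0.97) and with centring on hepatocyte markers (-0.84).

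Cyp2f4 had 234, 295 and 381 in oval cells and 800, 769, 689, 868 and 732 in foci, against 1414 and 1372 in control. The 3 groups were separate. Its fall in oval cells was 5.81-fold against control (adjusted p = 1.54e-08) and 3.07-fold against foci (adjusted p = 6.44e-08), with the size uncertain because 3 oval cell arrays lay under 300. Its 1.89-fold difference in foci against control stayed under the fold limit. Cyp2j3, an arachidonic acid epoxygenase, had 1168, 1309 and 1909 in oval cells and 1632, 2066, 2282, 2353 and 2315 in foci, against 7449 and 8873 in control, which is 5.97-fold lower in oval cells (adjusted p = 4.08e-08) and 3.95-fold lower in foci (adjusted p = 1.3e-06). Cyp2t1 had 342, 380 and 449 in oval cells and 450, 394, 356, 452 and 383 in foci, against 1461 and 1656 in control. It was 4.69-fold lower in oval cells (adjusted p = 6.43e-09) and 4.45-fold lower in foci (adjusted p = 2.02e-08), and the lesions overlapped. Cyp2r1, the vitamin D hydroxylase, had 239, 264 and 307 in oval cells and 300 to 413 in foci, against 493 and 492 in control, and was called in oval cells alone (2.13-fold lower, adjusted p = 9.34e-06, under 2-fold with no background correction or with centring on hepatocyte markers).

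Cyp2e1, the ethanol and nitrosamine oxidase of the pericentral hepatocyte, was the 1 family 2 gene with no call in any comparison. It had 24568, 37725 and 41982 in oval cells and 21827, 34302, 32577, 34587 and 33559 in foci, against 32577 and 29992 in control. The groups overlapped, and the log2 difference was 0.18 ± 0.20 (SE, adjusted p = 0.431) in oval cells and -0.02 ± 0.20 (SE, adjusted p = 0.953) in foci. The probe is near the top of the intensity scale, where quantile normalization sets the value by rank, so a change there is hard to see. Between 1 and 88 probes were brighter than it on each array.

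**Figure D2:**
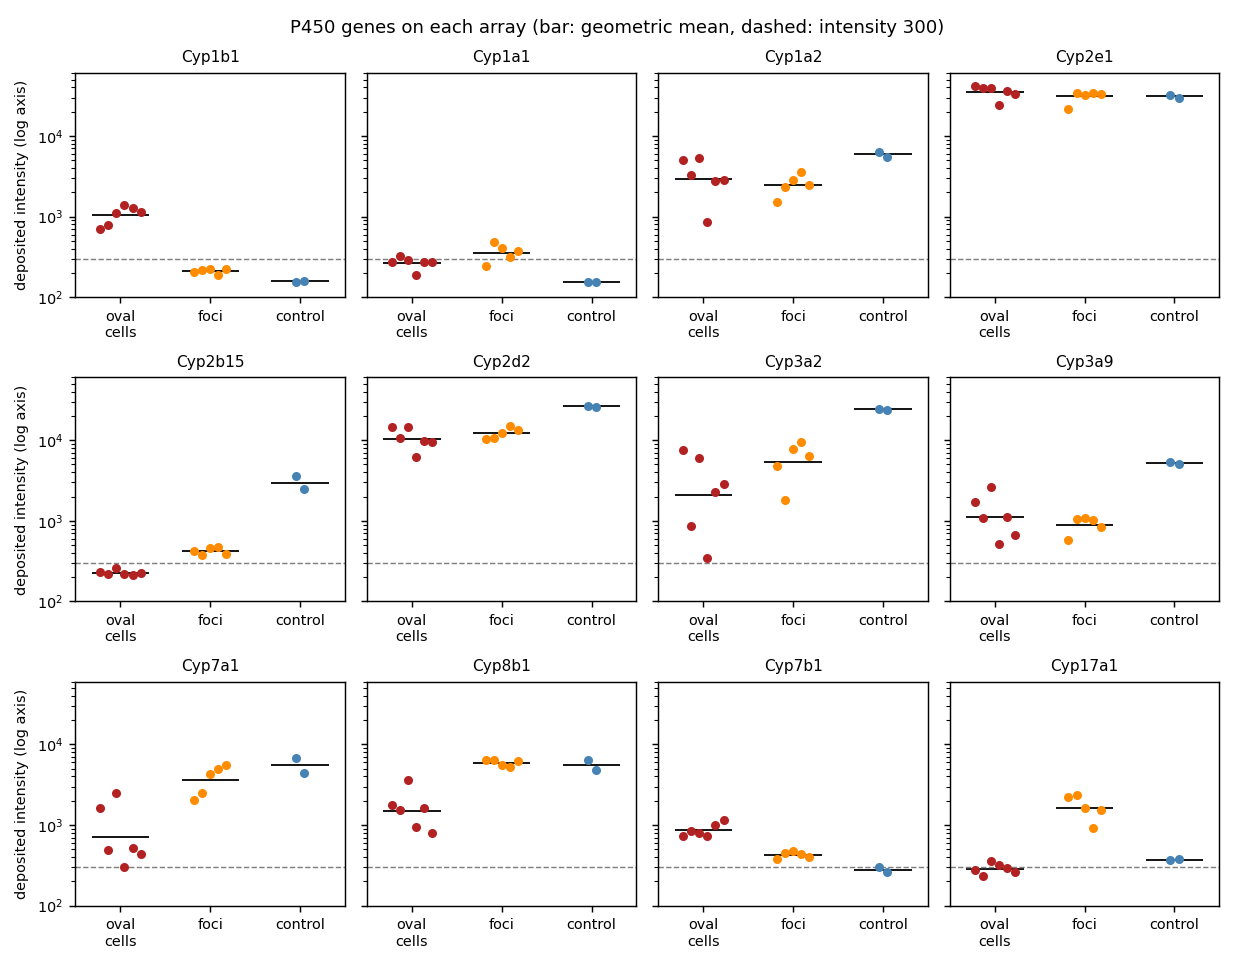
Deposited intensity (log axis) of 12 P450 genes on each oval cell, foci and control array, with the geometric mean as a bar and the limit of 300 dashed. Cyp1b1 is above 300 only in oval cells, Cyp17a1 is high in foci (925 to 2327), and Cyp2e1 overlaps across the 3 groups.

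Family 3, the Cyp3a steroid and drug oxidases, fell by 3 of its 5 probes in oval cells and 2 of 5 in foci. Neither limma nor the methods' t-test called any of the 5 between oval cells and foci. Of them 1, Cyp3a18, had an adjusted p under 0.05 by limma (0.00567, log2 difference -0.51) and stayed under 2-fold. Cyp3a2, a male-predominant testosterone hydroxylase, had 7539, 856, 6036, 347, 2277 and 2903 in oval cells and 4843, 1825, 7742, 9495 and 6445 in foci, against 24419 and 23774 in control. The oval cell arrays spanned 21.8-fold, the widest range of the 35 probes, and all lay below control. The log2 difference was -3.60 ± 0.96 (SE, adjusted p = 0.00366) in oval cells and -2.20 ± 0.98 (SE, adjusted p = 0.0617) in foci. The second was called without oval cells replicate 4 (adjusted p = 0.0146) or replicate 1 (adjusted p = 0.0438) and in a fit of foci and control alone (adjusted p = 0.00358). It was also called with cyclic loess (adjusted p = 0.0471) and with centring on ribosomal protein (adjusted p = 0.0147) or hepatocyte marker probes (adjusted p = 0.0491). The methods' t-test called Cyp3a2 in foci (adjusted p = 0.0483) and not in oval cells (adjusted p = 0.0535). Between oval cells and foci, Cyp3a2 was called lower in oval cells without oval cells replicate 1 (log2 difference -1.78, adjusted p = 0.0306) or replicate 3 (-1.72, adjusted p = 0.0430), without foci replicate 2 (-1.79, adjusted p = 0.0398) and with centring on hepatocyte markers (-1.60, adjusted p = 0.0168).

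Cyp3a9 had 520, 1097 and 2662 in oval cells and 583, 1047, 1087, 1023 and 840 in foci, against 5337 and 5040 in control (4.96-fold lower in oval cells, adjusted p = 0.000599, and 6.23-fold lower in foci, adjusted p = 0.000316). Cyp3a18 had 220, 250 and 332 in oval cells and 361, 279, 372, 370 and 377 in foci, against 1182 and 1164 in control (5.65-fold lower in oval cells, adjusted p = 4.37e-08, and 3.96-fold lower in foci, adjusted p = 1.02e-06). Oval cells and foci overlapped for both genes. Cyp3a23-3a1, the pregnenolone-inducible Cyp3a1, was not called. Its brighter probe had 6813, 10735 and 15439 in oval cells and 7926, 8030, 10357, 10141 and 9748 in foci, against 15490 and 17105 in control, with log2 differences of -0.57 ± 0.23 (SE, adjusted p = 0.0371) and -0.83 ± 0.24 (SE, adjusted p = 0.00664), under the 2-fold limit. The brighter probe was called lower in foci with cyclic loess (-1.14, adjusted p = 0.00106). With centring on ribosomal protein probes it was called lower in oval cells (-1.60) and in foci (-1.62). The dimmer probe gave -0.54 (adjusted p = 0.272) and -0.82 (adjusted p = 0.117) in the main fit.

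**Figure D3:**
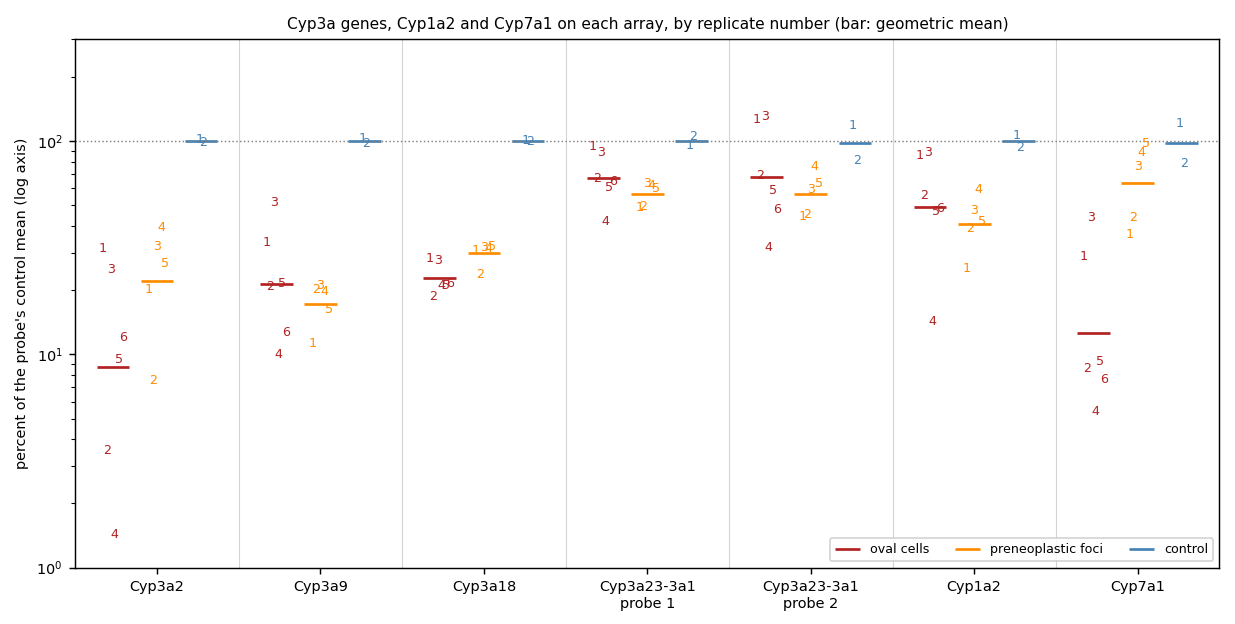
Each array as a percentage of its probe's mean in control (log axis), plotted as its replicate number, for the 5 Cyp3a probes, Cyp1a2 and Cyp7a1. Bars are geometric means. For Cyp3a2 oval cells replicate 4 is at 1.44% and replicate 1 at 31.3% of control, while for the brighter Cyp3a23-3a1 probe they are at 41.8% and 94.7%.

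Cyp3a2 and Cyp3a23-3a1 are neighbours on chromosome 12 with Cyp3a18. Their upstream stretches are shown because the sequences are close and the main fit called Cyp3a2 lower in oval cells but not Cyp3a23-3a1. Capitals mark TGAACT, a half-site of nuclear receptors such as the pregnane X receptor, and CAAAGTCCA, a sequence of the type bound by HNF4. The Cyp3a2 stretch is chr12:14343858-14344107, minus strand, and that of Cyp3a23-3a1 is chr12:14398804-14399053, minus strand, both of 250 bases in GRCr8.
Cyp3a2: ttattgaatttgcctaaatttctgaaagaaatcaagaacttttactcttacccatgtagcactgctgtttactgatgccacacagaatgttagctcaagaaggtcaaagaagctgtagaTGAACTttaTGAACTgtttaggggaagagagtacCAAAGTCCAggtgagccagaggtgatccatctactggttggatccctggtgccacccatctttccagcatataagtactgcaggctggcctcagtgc
Cyp3a23-3a1: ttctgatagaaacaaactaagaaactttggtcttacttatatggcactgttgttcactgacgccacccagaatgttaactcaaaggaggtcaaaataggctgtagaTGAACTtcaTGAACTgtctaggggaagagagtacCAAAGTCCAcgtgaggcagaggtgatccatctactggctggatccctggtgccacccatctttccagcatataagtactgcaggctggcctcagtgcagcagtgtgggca
Aligned end to end, the stretches were identical at 210 of 265 columns (79.2%), against 50.4% for Cyp3a2 with Cyp3a9 and 52.6% with Cyp3a18. Both hold a pair of TGAACT half-sites in the same direction with 3 bases between them, beginning 131 bases before the start in Cyp3a2 and 144 in Cyp3a23-3a1. Among 27457 promoters these were the only 2 with such a pair on either strand, while single TGAACT, which the pair contains, is in 12.1%. CAAAGTCCA follows 97 bases before the start in Cyp3a2 and 110 in Cyp3a23-3a1, and 0.331% of all promoters hold it. The Cyp3a9 and Cyp3a18 stretches hold single TGAACT matches and no pair. Matches of letters are descriptions and were not tested as binding sites.

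Family 4 was mixed by subfamily. Of the 3 tested Cyp4f genes, leukotriene and fatty acid hydroxylases, Cyp4f1 and Cyp4f4 fell in both lesions and Cyp4f6 was not called, and the Cyp4a genes, targets of PPAR alpha, were not called either. Cyp4f4 had 636, 1011 and 1590 in oval cells and 1855, 1878, 2204, 2768 and 2158 in foci, against 6564 and 5826 in control. The groups were separate and in that order. It was 6.17-fold lower in oval cells (adjusted p = 7.89e-07) and 2.94-fold lower in foci (adjusted p = 0.000217) than in control, and 2.10-fold lower in oval cells than in foci (adjusted p = 0.000263), the last under 2-fold without oval cells replicate 4 (log2 difference -0.91) or foci replicate 4 (-0.97). Cyp4f1 had 766, 1245 and 1729 in oval cells and 2208, 1545, 2275, 2580 and 2621 in foci, against 4202 and 4639 in control. Its fall was 3.81-fold in oval cells (adjusted p = 9.2e-06) and 2.03-fold in foci (adjusted p = 0.00336). In foci it was under 2-fold without control replicate 2 (log2 difference -0.95) or foci replicate 2 (-0.89). The foci difference was also under 2-fold with no background correction (-0.9998), array weights (-0.97) or centring on hepatocyte markers (-0.63). Of the arrays left out in turn, 2 brought a call of Cyp4f1 in oval cells against foci, namely oval cells replicate 1 (-1.01) and foci replicate 2 (-1.04). Cyp4f6 averaged 2093 ± 452 (SD, n = 6) in oval cells and 1887 ± 191 (SD, n = 5) in foci, against 3007 ± 184 (SD, n = 2) in control, under the fold limit in both.

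Cyp4a2, Cyp4a3 and Cyp4a1 showed no called difference in any comparison. Cyp4a3 averaged 7090 ± 2552 (SD, n = 6) in oval cells and 8386 ± 1513 (SD, n = 5) in foci, against 5954 ± 37.1 (SD, n = 2) in control, and Cyp4a2 averaged 2120 ± 711 and 2362 ± 268, against 3626 ± 978. Without control replicate 2, Cyp4a2 was called lower in oval cells (log2 difference -1.14, adjusted p = 0.0304). The brighter Cyp4a1 probe averaged 324 ± 24.4 in oval cells and 377 ± 33.5 in foci, against 446 ± 48.0 in control. Cyp4b1, an enzyme mainly of lung that forms toxic products from aromatic amines, went the other way in foci. It had 743, 2182, 1185, 553 and 547 in foci, 212, 265 and 299 (lowest, median, highest) in oval cells, and 397 and 342 in control. All 5 foci arrays lay above both control arrays. Cyp4b1 was 2.75-fold higher in foci than in control (adjusted p = 0.00802) and at least 2.99-fold lower in oval cells than in foci (adjusted p = 2.11e-05). The rise in foci was lost without control replicate 2 (adjusted p = 0.0662) and by the methods' t-test (adjusted p = 0.127).

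Of the 4 sterol P450 genes, 2 were called lower and 1 higher in oval cells than in foci, and Cyp27a1 was not called. Cyp7a1, the rate-limiting enzyme of bile acid synthesis, had 304, 505 and 2470 in oval cells and 2059, 2473, 4301, 5008 and 5488 in foci, against 6847 and 4441 in control. It was 8.73-fold lower in oval cells than in control (log2 difference -3.13 ± 0.70, SE, adjusted p = 0.00101) and 5.64-fold lower than in foci (adjusted p = 0.000562). Foci and control overlapped (-0.63 ± 0.72, SE, adjusted p = 0.455). Oval cells overlapped with foci through replicate 3 of the oval cells. Cyp8b1, the sterol 12-alpha-hydroxylase that directs synthesis to cholic acid, had 798, 1561 and 3592 in oval cells and 6490, 6414, 5498, 5171 and 6151 in foci, against 6468 and 4797 in control. All oval cell arrays were below the other arrays. Its fall in oval cells was 3.86-fold against control (adjusted p = 0.000514) and 4.11-fold against foci (adjusted p = 2.23e-05), and foci and control differed by 0.09 ± 0.41 (log2, SE, adjusted p = 0.86).

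Cyp7b1, the oxysterol 7-alpha-hydroxylase of the alternative bile acid pathway, was high in oval cells. It had 726, 821 and 1139 in oval cells and 374, 445, 470, 441 and 399 in foci, against 299 and 263 in control. The 3 groups did not overlap. Cyp7b1 was at least 2.86-fold higher in oval cells than in control (adjusted p = 1.54e-07) and 2.23-fold higher than in foci (adjusted p = 1.16e-06). The second of these calls was lost with centring on ribosomal protein probes (log2 difference 0.92) or hepatocyte markers (0.95). In foci it had an adjusted p of 0.00157 and stayed under the fold limit. Cyp27a1, the mitochondrial sterol 27-hydroxylase, averaged 6704 ± 1541 (SD, n = 6) in oval cells and 6431 ± 1089.6 (SD, n = 5) in foci, against 10088 ± 1180.3 (SD, n = 2) in control. Every lesion array was below control, the log2 differences were -0.62 (adjusted p = 0.0157) and -0.67 (adjusted p = 0.0137), and neither reached 2-fold. In foci against control limma and the methods' t-test called 0 of the 4 sterol genes. By limma 2 of them, Cyp7b1 and Cyp27a1, had an adjusted p under 0.05 and stayed under 2-fold.

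Of the remaining families 2 genes passed the limit. Cyp17a1, the steroid 17-alpha-hydroxylase of gonad and, in other species, adrenal gland, had 2236, 2327, 1624, 925 and 1553 in foci, 235, 286 and 357 in oval cells, and 367 and 380 in control. It was 5.19-fold higher in foci than in control (log2 difference 2.38 ± 0.29, SE, adjusted p = 6.83e-06) and 7.26-fold lower in oval cells than in foci (adjusted p = 2.65e-08). Foci stood clear of both other groups on all 5 arrays. Cyp20a1, an enzyme with no known substrate, averaged 243 ± 12.3 (SD, n = 6) in oval cells and 358 ± 35.3 (SD, n = 5) in foci, against 283 ± 30.0 (SD, n = 2) in control, and was not called.

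On chromosome 1, 11 member genes of subfamilies 2a, 2b, 2f, 2g, 2s and 2t lie near each other (gaps under 1 Mb). All 6 that were tested were called lower in oval cells, 3 of them in foci as well, and 3 were lower in oval cells than in foci. The 4 Cyp2d genes on chromosome 7 fell in both lesions. In the run of 3 tested Cyp4f genes, also on chromosome 7, 2 fell in both. The run on chromosome 5 holds Cyp4a2, Cyp4a3, Cyp4a1 and Cyp4b1, and of these Cyp4b1 alone was called. Cyp1a1 and Cyp1a2, neighbours on chromosome 8, went opposite ways in foci.

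**Figure D4:**
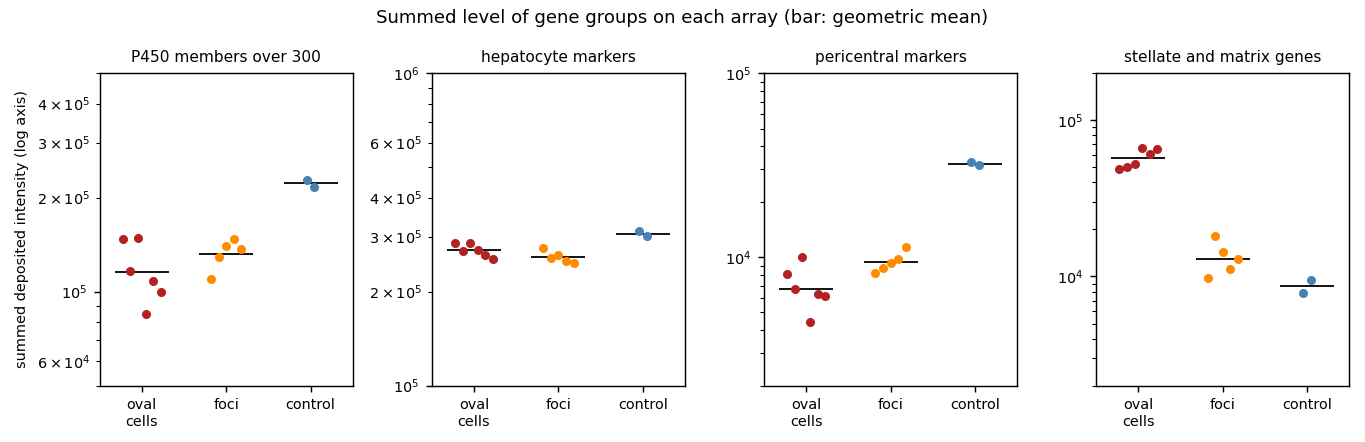
Summed deposited intensity (log axis) on each array of all 60 P450 probes, of the hepatocyte markers, of the pericentral markers outside the P450s and of the stellate and matrix genes, with the geometric mean as a bar. The P450 sums include the probes under 300, although the panel title names only those over it. P450 sums run from 84935 to 148699 in oval cells and from 109375 to 147405 in foci, below 216521 and 228219 in control.

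Markers of the cells in the samples moved with the P450 genes to different degrees. Of 10 tested hepatocyte markers 0 were called in any comparison by limma or by the methods' t-test, as all differed by less than 2-fold. The adjusted p (limma) was under 0.05 for 3 (oval cells and control), 5 (foci and control) and 3 (oval cells and foci). The unadjusted p was under 0.05 for 3, 5 and 4. Their summed intensity was 253511 to 286351 in oval cells and 246539 to 275962 in foci, against 302170 to 311557 in control. Albumin (Alb) averaged 39885 ± 544 (SD, n = 6) in oval cells and 29138 ± 2993 (SD, n = 5) in foci, against 35095 ± 3845 (SD, n = 2) in control. Ttr, Tf and Hpd, 3 other markers of the list, differed by at most 0.89 on the log2 scale in the 3 comparisons. Alb, Tf (38505 in oval cells) and Ttr (39244 in control) lie near the highest deposited intensity of 43186. As for Cyp2e1, a change there is hard to see, so the 0 calls do not measure the hepatocyte content of the samples.

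The other lists describe what else changed on the same arrays. Their counts stand beside shares over all tested probes of 12.0% lower and 13.5% higher in oval cells against control, 7.80% and 10.3% in foci against control, and 6.73% and 7.96% in oval cells against foci. The biliary and progenitor markers were higher by 8 of 8 in oval cells and 5 of 8 in foci than in control, and 7 of 8 were higher in oval cells than in foci (Krt19, whose protein served to choose the oval cells, averaged 6826 ± 1083 in oval cells and 701 ± 325 in foci, against 297 ± 70.4 in control, ± SD). Of these, Krt7 and Cldn4 lay under 300 on every foci and control array, and Spp1, Tnfrsf12a and Prom1 on every control array. Stellate and matrix genes were higher by 10 of 10 in oval cells and 3 of 10 in foci than in control, and 10 of 10 were higher in oval cells than in foci, with sums of 48548 to 66900 in oval cells and 9789 to 18093 in foci, against 7896 to 9464 in control. Of 9 macrophage genes 3 were higher and 1 lower in oval cells and 2 lower in foci than in control, and 3 were higher in oval cells than in foci. Of 2 endothelial genes 1, Vwf, was higher in oval cells than in control and than in foci, and limma and the methods' t-test both called 0 in foci against control, where 1 gene had an unadjusted p under 0.05. The 1 tested lymphocyte gene, Cd8a, was not called by limma or the methods' t-test, with log2 differences of 0.21, -0.36 and 0.57 in the 3 comparisons. Its adjusted p (limma) was under 0.05 in the last alone. The 3 erythroid genes were lower in both lesions than in control (sums of 2996 to 7087 in oval cells and 6101 to 7487 in foci, against 26102 to 29530 in control). Between the lesions limma and the methods' t-test called 0 of them, and 1 had an adjusted p (limma) under 0.05 and stayed under 2-fold. Krt7, Cldn4 and the stellate gene Des lay under 300 on every foci and control array, so they entered the test through oval cells alone. Their calls follow a selection on that group. Cd8a, too, passed the limit by its oval cell median alone. The part of these cell types in the P450 differences was not tested.

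Zone markers outside the P450s differed as well, and their counts stand beside the same shares over all tested probes. Of 7 tested pericentral markers, 6 were lower in oval cells and 5 lower and 1 higher in foci than in control, and 1 was lower in oval cells than in foci. Their sums were 4450 to 10031 in oval cells and 8149 to 11326 in foci, against 31715 to 32884 in control. Rgn, a calcium-binding lactonase, was 9.13-fold lower in oval cells and 3.06-fold lower in foci than in control, and Gulo, the last enzyme of vitamin C synthesis, was 6.35-fold and 3.51-fold lower. Of 10 periportal markers, 4 were lower and 2 higher in oval cells and 2 lower and 2 higher in foci than in control, and 1 was lower in oval cells than in foci. Their sums overlapped, with 70980 to 114387 in oval cells and 94344 to 121308 in foci, against 90712 to 106673 in control.

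Within the oval cells, the P450 genes varied with the array. Replicate 4 was the lowest of the 6 for 14 of the 19 probes called lower than control, and replicates 1 and 3 were the highest for 11 and 8. Over all 838 probes called lower, replicate 4 was the lowest for 46.5% and replicates 1 and 3 the highest for 35.1% and 41.3%. The P450 sums were 147267 and 148699 in replicates 1 and 3 and 84935 in replicate 4. Replicates 1 and 3 also had the highest hepatocyte marker sums (286351 and 286026) and the lowest biliary marker sums (21242 and 21944), and replicate 4 had the lowest pericentral sum (4450) and the highest stellate and matrix sum (66900). Other lists ranked replicate 4 differently. It had the highest periportal sum (114387), the lowest macrophage sum (19998) and a hepatocyte marker sum of 271202. Replicate 6 had the lowest hepatocyte marker sum (253511) and the highest biliary sum (31320). Without replicate 4 there were 18 probes called lower in oval cells than in control, without replicate 1 there were 20, and without replicate 3 there were 20. Besides Cyp3a2, the widest ranges within the oval cells were those of Cyp7a1 (8.13-fold), Cyp1a2 (6.20-fold) and Cyp3a9 (5.12-fold), and the narrowest were those of Cyp20a1 (1.17-fold) and the brighter Cyp4a1 probe (1.18-fold).

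Genes that serve the P450 enzymes were counted in the same fit. Over all tested probes, 12.0% were lower and 13.5% higher in oval cells than in control. The shares were 7.80% and 10.3% in foci against control and 6.73% and 7.96% in oval cells against foci. Of 11 electron donors and heme enzymes, 3 were lower in oval cells than in control, and in foci 1 was lower and 2 were higher, while 2 were lower in oval cells than in foci. The share of 1 lower in 11 in foci is near the 7.80% of all tested probes. Cyb5r3, the reductase of cytochrome b5, was lower in both lesions, with 368 ± 72.0 (SD, n = 6) in oval cells and 620 ± 138 (SD, n = 5) in foci, against 1698 ± 254 (SD, n = 2) in control. Pgrmc1, a heme-binding P450 partner, was 3.73-fold lower in oval cells than in foci (adjusted p = 1.09e-08), and so was the mitochondrial ferredoxin Fdx2 (2.37-fold, adjusted p = 2.89e-08), which was 2.04-fold higher in foci than in control. The oxidoreductase Por, named here after its values were seen, was 2.42-fold higher in foci than in control (adjusted p = 5.32e-05), where 13 P450 probes were lower, and it was not called in oval cells (log2 difference 0.64 ± 0.19, SE).

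Of 19 transcription factors, receptors and signalling genes known to control P450 genes, 8 were lower than control in oval cells and 6 in foci. Between the lesions, 4 were lower and 1 higher in oval cells than in foci. Over all tested probes the shares lower were 12.0%, 7.80% and 6.73% in these comparisons, and 7.96% were higher in oval cells than in foci. The bile acid receptor Nr1h4 averaged 424 ± 28.5 (SD, n = 6) in oval cells and 706 ± 32.8 (SD, n = 5) in foci, against 1258 ± 29.9 (SD, n = 2) in control. It was 3.36-fold lower in oval cells (adjusted p = 1.35e-09), and in foci its 1.87-fold difference was under the fold limit. The growth hormone receptor Ghr averaged 282 ± 28.8 (SD, n = 6) in oval cells and 351 ± 62.5 (SD, n = 5) in foci, against 988 ± 7.73 (SD, n = 2) in control, and was called lower in both lesions. Rxra, the partner of many nuclear receptors, and Nr0b2, the repressor that feeds back on Cyp7a1, were also lower in both lesions. Nr0b2 lay under 300 on every lesion array and entered the test through control alone. Its calls therefore follow a selection on control.

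Targets of 2 receptors outside the P450s were set beside families 1 and 4. Of 2 tested targets of the aryl hydrocarbon receptor, 1 was higher in oval cells and both in foci than in control, and both were lower in oval cells than in foci. Nqo1, a quinone reductase that is also a target of Nrf2, averaged 1511 ± 512 (SD, n = 6) in oval cells and 7082 ± 1693 (SD, n = 5) in foci, against 896 ± 324 (SD, n = 2) in control, and Ugt1a6 averaged 666 ± 203 and 1749 ± 320, against 270 ± 85.2. The receptor Ahr itself, named here after its values were seen, averaged 1222 ± 232 (SD, n = 6) in oval cells and 624 ± 68.3 (SD, n = 5) in foci, against 1271 ± 272 (SD, n = 2) in control. It was 2.16-fold lower in foci than in control (adjusted p = 0.000211), where its 2 listed targets were higher. Of 9 tested PPAR alpha targets, 3 were lower and 1 higher in oval cells than in control. In foci 2 were lower and 2 higher than in control, and between the lesions 3 were lower and 1 higher in oval cells. Over all tested probes 12.0% were lower and 13.5% higher in oval cells than in control. The shares were 7.80% and 10.3% in foci against control and 6.73% and 7.96% in oval cells against foci. The counts of 1 of 9 higher are near those shares. Fabp1, the liver fatty acid binding protein, was 2.84-fold lower in oval cells than in control (adjusted p = 2.65e-06) and 2.25-fold lower than in foci (adjusted p = 1.59e-06). The acyl-CoA dehydrogenase Acadm was 2.68-fold lower in oval cells than in control, while Cyp4a3 was not called.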

How the data were processed

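RNA of rat liver was measured on 13 Illumina arrays. The authors read the arrays with BeadStudio (the submitters' processing notes give version 3.0.19.0) and deposited quantile-normalized intensity on a linear scale. Low values show no subtraction of background. This normalization gives all arrays the same distribution, so a shift of total RNA cannot be seen. A further table with 26 per-sample columns whose names match no label was not used.

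Each array's group was read from its label. Replicate numbers follow the order of deposition and pair nothing. In limma (version 3.58.1, R version 4.3.3), background was corrected with normexp (offset 50), followed by quantile normalization and log2. A fit over all 13 arrays tested the 6997 probes whose median intensity exceeded 300 in at least 1 group, with Benjamini-Hochberg adjustment. The offset limits the fold changes of dim probes, but background correction made such folds larger than the deposited intensities give. For Cyp2f4 in oval cells against control the log2 difference was -2.54, and -2.22 in the deposited intensities. For Cyp2b15 in foci against control the values were -3.03 and -2.80. A fold written as at least a value is the geometric mean of the brighter group divided by 300, used when no array of the dimmer group reached 300. Where only some arrays of a group lay under 300, the fitted fold is uncertain in size. The script was tested on simulated data.

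In the platform annotation 13793 probes have 1 symbol, 0 have several and 8730 have no name here. All 60 member probes matched RefSeq (GRCr8), the source of the upstream sequences. All genes above the limit are named, each by its brightest probe, with up to 4 genes of each list (hepatocyte, biliary, stellate, macrophage, endothelial, lymphocyte, erythroid, pericentral and periportal markers, electron donors, regulators, aryl hydrocarbon receptor and PPAR alpha targets). Members and lists were chosen with earlier results of these data known. Alternatives were other background, offset, filter, fold limit, centring, normalization, weights, samples and test, each array left out, and other probes of a gene.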

Additional observations from a re-analysis of the deposited data

Results flagged for a closer look

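In 66 sets of oval cell or foci values of the P450 genes, 4 held an array that stood apart from the rest by Dixon's criterion, and chance alone sets apart about 5% of sets. Cyp2e1 was 21827 in foci replicate 1, and the next lowest foci array had 32577. Cyp3a18 was 279 in foci replicate 2, and the next lowest had 361. Cyp4a1 was 436 in foci replicate 3, and the next highest had 369. Cyp8b1 was 3592 in oval cells replicate 3, and the next highest had 1757. Replicate 3 of the oval cells was also the highest array for 8 of the 19 P450 probes called lower than in control. It was the highest for a near share, 41.3%, of all 838 probes called lower.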

How the results depend on the processing

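No P450 gene with a called difference changed sign under any alternative run. Over the 33 genes in 3 comparisons, 2412 of the alternative results kept their side of the threshold, 81 passed it newly and 39 lost it. Centring on ribosomal protein probes shifted the median log2 difference of all tested probes to -1.01 in oval cells against control, -0.78 in foci against control and -0.27 in oval cells against foci, and the P450 probes called lower numbered 30 in oval cells and 23 in foci against control, with 1 higher in each and 1 higher in oval cells against foci. Under that centring the calls of Cyp1a1 in both lesions, of Cyp7b1 in oval cells (log2 difference from control 0.89) and of Cyp4b1 in foci (0.67) were lost. Centring on hepatocyte markers gave 5 higher in foci against control and 1 higher in oval cells against foci. Under it 7 calls were lost, among them those of Cyp1a2, Cyp2d2, Cyp2d5 and Cyp4f1 in foci against control. With the median over all arrays above 300, or with the study's filter, 1 was higher in oval cells against control and 1 in oval cells against foci, because Cyp1b1 and Cyp1a1 were not tested there. With no fold limit, foci against control had 20 lower and 6 higher and oval cells against foci 20 lower, and with a limit of 1.5-fold foci had 5 higher and oval cells against foci 14 lower. Leaving out each array gave 18 to 21 lower and 3 to 3 higher in oval cells against control, 11 to 14 lower and 2 to 3 higher in foci against control, and 7 to 10 lower and 2 to 2 higher in oval cells against foci. The cause of the other changes was not tested. No paired analysis was possible because the labels give arrays of different groups no shared numbers. The 2 control arrays and values near 300 limit the precision.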
